A study of Rattus norvegicus with 4 samples.

Results

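The genes of prostaglandin synthesis, breakdown and reception were examined in 4 samples of rat glomerular RNA. They were chosen by symbol: 10 were named, 8 of them had a row among the 13261 genes used, and Ptges (microsomal prostaglandin E synthase-1) and Ptgis (prostacyclin synthase) were not analysed here. The source was male rats of the outbred Wistar strain, with a stated body weight of about 150 to 175 g, and all received an intravenous injection of Adriamycin (ADR; the anthracycline doxorubicin), which injures podocytes and brings about nephrotic syndrome in rodents. Neither the dose nor the age was stated, and day 11 or day 21 is named for harvest without saying which applied. Glomeruli were obtained by sieving, so the RNA is that of a mixed tissue: podocytes, endothelial and mesangial cells together with adhering tubule. Rats without ADR were not analysed here, and the comparisons below are between the 4 samples of this group, called replicates 1 to 4 in accession order. The labels list the samples separately but do not state that each came from a separate rat, so SDs and p-values measure the spread between these samples.

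Prostaglandins are lipid mediators made from arachidonic acid. Cytosolic phospholipase A2 releases the acid from membranes, a cyclooxygenase turns it into prostaglandin H, and terminal synthases make prostaglandin E, prostacyclin or thromboxane, which leave the cell and act on G protein-coupled receptors nearby until a dehydrogenase inactivates them. In the kidney, prostaglandins keep up glomerular blood flow and control salt excretion, and cyclooxygenase-2 is known from the macula densa and from podocytes under stress.

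The 250 bases before the annotated start of 4 of the genes are shown because the results below set their courses over the samples side by side: Ptgs2 and Pla2g4a shared an order, and Ptgs1 and Hpgd did not have it. The sequences are from RefSeq, build GRCr8, each read 5′ to 3′ on the strand of its gene. Ptgs2 lies on the plus strand (chr13:64713813-64714062), Pla2g4a on the minus strand (chr13:64572353-64572602), Ptgs1 on the plus strand (chr3:39981169-39981418) and Hpgd on the minus strand (chr16:39034832-39035081). Capitals mark matches, on either strand, to the letters CACGTG (E-box), TGACG (half-site of the cAMP response element), TTGCNNAA (C/EBP), GGGCGG (Sp1 box) and, for the TATA box, the letters TATAAA; matches of different motifs did not overlap.
Ptgs2: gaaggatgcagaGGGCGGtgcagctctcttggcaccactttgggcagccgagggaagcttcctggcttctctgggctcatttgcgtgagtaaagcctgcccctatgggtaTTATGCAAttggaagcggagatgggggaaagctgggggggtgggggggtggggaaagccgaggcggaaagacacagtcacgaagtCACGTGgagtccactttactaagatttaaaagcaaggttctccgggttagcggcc
Pla2g4a: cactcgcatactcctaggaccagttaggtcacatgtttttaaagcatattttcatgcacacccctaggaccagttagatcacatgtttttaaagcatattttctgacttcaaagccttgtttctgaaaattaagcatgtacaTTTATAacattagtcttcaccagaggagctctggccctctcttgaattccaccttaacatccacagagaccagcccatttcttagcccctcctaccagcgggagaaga
Ptgs1: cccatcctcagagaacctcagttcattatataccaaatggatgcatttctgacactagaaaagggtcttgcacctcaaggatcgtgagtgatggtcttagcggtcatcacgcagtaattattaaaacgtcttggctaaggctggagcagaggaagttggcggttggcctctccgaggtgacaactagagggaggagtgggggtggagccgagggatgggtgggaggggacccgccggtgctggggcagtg
Hpgd: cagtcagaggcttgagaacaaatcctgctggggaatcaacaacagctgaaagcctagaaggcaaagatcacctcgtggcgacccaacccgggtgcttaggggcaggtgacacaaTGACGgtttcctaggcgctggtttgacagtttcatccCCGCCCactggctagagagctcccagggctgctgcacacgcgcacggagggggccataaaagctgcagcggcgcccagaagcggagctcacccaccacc

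Of these windows, that of Ptgs2 held an E-box at bases -55 to -50, counted from the start, a C/EBP match at -140 to -133 and an Sp1 box at -238 to -233. The E-box letters were found in 5.59% of the 33469 windows of this length in the table, those of C/EBP in 9.22% and those of the Sp1 box in 30.5%. The window of Pla2g4a held only a TATA box match, at -108 to -103, a motif found in 12.9% of windows. Hpgd had the cAMP half-site at -136 to -132, found in 18.2% of windows, and an Sp1 box at -99 to -94. None of the 5 motifs was found in the Ptgs1 window. A match describes letters and shows no binding. In RefSeq, Pla2g4a and Ptgs2 are neighbours on chromosome 13 with no other protein-coding gene between them, so the phospholipase and the inducible cyclooxygenase share a genomic neighbourhood. The RefSeq windows of Ptger1, Ptger4 and Ptges3 did not begin at the end of the gene's annotated span and are not shown.

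Levels are given as CPM, the reads of a gene scaled to the same total in each sample. The 4 libraries held between 13566962 and 16207027 reads in the genes used. CPM is not corrected for transcript length, and transcript lengths were not used here, so the genes are compared between samples and not ranked against each other. The median over the genes, taken in each sample, was 5.27 ± 0.24 log2 CPM (SD, n = 4).

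At the first step of the pathway, Pla2g4a (ENSRNOG00000002657), the cytosolic phospholipase A2 that frees arachidonic acid, had 59.9, 31.0, 42.0 and 61.7 CPM in replicates 1 to 4. Replicates 1 and 4 were high and alike, replicate 2 was lowest and replicate 3 lay between. The mean was 48.7 ± 14.8 CPM (SD, n = 4), and the highest sample exceeded the lowest 1.99-fold.

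Ptgs2 (ENSRNOG00000002525) encodes cyclooxygenase-2, the inducible enzyme. Its level was 17.8, 6.73, 9.32 and 13.6 CPM in replicates 1 to 4, a mean of 11.9 ± 4.85 CPM (SD, n = 4). Replicate 1 was high and replicate 2 low, with a 2.64-fold difference between them, and the 95% Poisson interval of replicate 1, 15.6 to 20.1 CPM, did not reach that of replicate 2, 5.52 to 8.11 CPM. These intervals cover counting error only. The reads behind the values were 241, 109, 143 and 207.

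Ptgs1 (ENSRNOG00000007415), which encodes the constitutive cyclooxygenase-1, had 27.1, 36.4, 40.6 and 38.8 CPM in replicates 1 to 4. Here replicate 1 was the low sample and the other three lay close together. The mean was 35.7 ± 6.02 CPM (SD, n = 4) and the range 1.5-fold. The 2 cyclooxygenases thus went apart in replicate 1, where Ptgs2 was at its highest and Ptgs1 at its lowest. Transcript length cancels when their ratio is compared between samples. Relative to its mean over the samples, the log2 ratio of Ptgs2 to Ptgs1 was 1.06 in replicate 1, -0.76 in replicate 2, -0.45 in replicate 3 and 0.16 in replicate 4. The SD of the ratio was 0.80 (log2, n = 4), and its range of 1.83 corresponds to a 3.54-fold difference between replicates 1 and 2. Without replicate 1 the range was 0.92.

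Of the terminal synthases, Ptges2 (ENSRNOG00000014050) encodes the membrane-associated prostaglandin E synthase-2 and Ptges3 (ENSRNOG00000002642) the cytosolic prostaglandin E synthase, a protein also known as p23, a cochaperone of Hsp90. Ptges2 had 31.3, 30.7, 32.6 and 28.6 CPM in replicates 1 to 4. Ptges3 had 145, 151, 159 and 153 CPM. Both were even: no sample stood out, and the SDs of the log2 values were 0.08 and 0.05. The highest sample exceeded the lowest 1.14-fold for Ptges2 and 1.09-fold for Ptges3.

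Hpgd (ENSRNOG00000010610) encodes 15-hydroxyprostaglandin dehydrogenase, the enzyme that begins prostaglandin breakdown. It had 2.36, 6.11, 2.61 and 3.54 CPM in replicates 1 to 4, from 32, 99, 40 and 54 reads. Replicate 2 was high and the other three were low, the reverse of Ptgs2 and Pla2g4a in that sample. The interval of replicate 2, 4.96 to 7.44 CPM, lay above those of the others, of which the highest reached 4.62 CPM. The ratio of Ptgs2 to Hpgd, the formation and breakdown ends of the pathway, ranged 6.75-fold between replicates 1 and 2, 3.46-fold without replicate 1 and 2.1-fold without replicate 2. Its log2 value relative to the mean was 1.20 in replicate 1, -1.56 in replicate 2, 0.13 in replicate 3 and 0.23 in replicate 4.

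Among the receptors, Ptger4 (ENSRNOG00000013240) encodes EP4, which raises cAMP on binding prostaglandin E. It had 50.7, 21.8, 38.2 and 54.6 CPM in replicates 1 to 4. As for Pla2g4a, replicates 1 and 4 were high and replicate 2 was low, with a mean of 41.3 ± 14.8 CPM (SD, n = 4) and a 2.51-fold range. Ptger1 (ENSRNOG00000004094) encodes EP1, a receptor that signals through calcium. Its level was 118, 118, 141 and 144 CPM, so that replicates 1 and 2 were alike and lay slightly below replicates 3 and 4. The ratio of Ptger4 to Ptger1 ranged 2.32-fold, highest in replicate 1 and lowest in replicate 2, and 1.59-fold without replicate 2. In RefSeq Gipc1 is a neighbour of Ptger1, and it had 76.9, 74.6, 73.3 and 76.0 CPM in the 4 samples. No protein-coding gene overlapped Ptger1 in RefSeq.

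**Figure D1:**
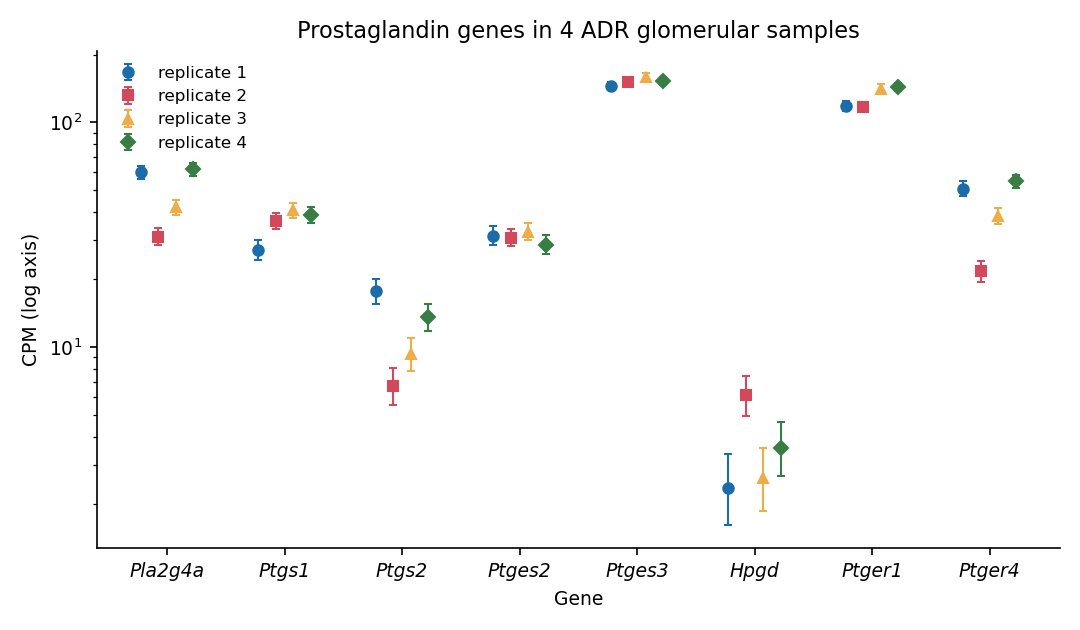
CPM (log axis) of the 8 prostaglandin genes in each of the 4 ADR samples; symbols are samples and bars are 95% Poisson intervals, which cover counting error only. Replicate 2 is lowest for Pla2g4a, Ptgs2 and Ptger4 and highest for Hpgd, at 6.11 CPM, and Ptges2 and Ptges3 hardly differ between samples.

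Whether these differences exceeded counting error was tested over all genes with a chi-square index of dispersion on the reads. Variation beyond counting error, at a Benjamini-Hochberg adjusted p under 0.05, was found for 7 of the 8 genes, beside 69.5% of all genes, so that such a call is the usual one in these libraries. The smallest adjusted p was that of Ptger4, 7.01e-53, followed by Pla2g4a with 7.94e-44 and Ptgs2 with 1.65e-18. Ptges2 did not pass, with an adjusted p of 0.281. Ptges3 passed with 0.0414, and this call was lost with trimmed-mean factors, where the adjusted p was 0.283, with median-of-ratios factors, where it was 0.329, and without replicate 1 or replicate 3, where it was 0.222 and 0.31. The call of Ptgs1 rested on replicate 1 and that of Hpgd on replicate 2: without these samples the adjusted p was 0.23 and 0.187.

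A stricter question is whether a gene varied more than others of like abundance. In an intercept-only limma fit, the residual variance of each gene was set against the abundance trend. The SD of the log2 values was 0.61 for Ptgs2 against a trend value of 0.21, 0.60 for Ptger4 against 0.16, 0.47 for Pla2g4a against 0.15 and 0.61 for Hpgd against 0.32. Ptgs1, at 0.26 against 0.16, and Ptger1, at 0.16 against 0.15, were nearer to the trend, and Ptges2 and Ptges3 were below it. Single samples set several of these SDs: without replicate 2 the SD was 0.27 for Ptger4, 0.31 for Pla2g4a, 0.47 for Ptgs2 and 0.30 for Hpgd, and without replicate 1 that of Ptgs1 was 0.08. Limma called 0 of the 8 genes at an adjusted p under 0.05, beside 0% of all genes. The 3 most variable by this measure, Ptger4, Pla2g4a and Ptgs2, each had an adjusted p of 0.913. The smallest adjusted p of any gene in this limma fit was 0.834, so a value of 0.913 says little about a single gene. At an unadjusted p under 0.05 these same 3 of 8 passed, beside 5.44% of all genes. With the dispersion trend held fixed, a Pearson statistic on the reads called the same 3 of 8, beside 7.53% of all genes, with adjusted p of 1.77e-05 for Ptger4, 0.00461 for Ptgs2 and 0.00483 for Pla2g4a. That test came into use in earlier work on these data after limma had called no gene, and its calls depended on a single sample: without replicate 2 it called 0 of the 8, beside 5.36% of all genes, and without replicate 1 it called Ptger4 and Pla2g4a, beside 5.03%.

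**Figure D2:**
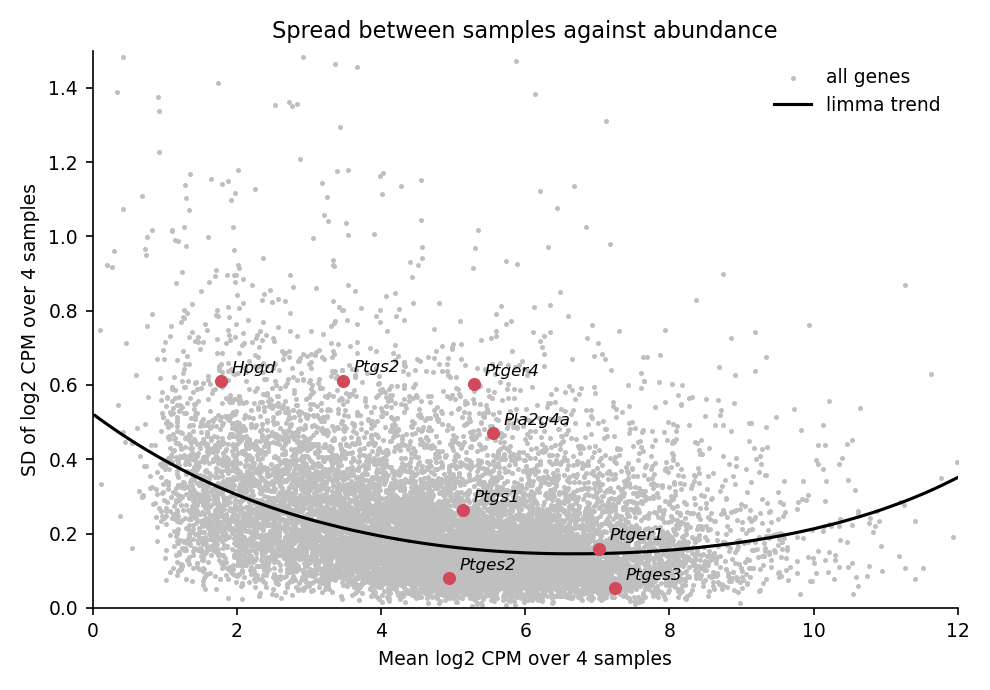
SD of log2 CPM over the 4 samples against mean log2 CPM for all genes (grey), with limma's abundance trend (line) and the 8 prostaglandin genes (red); 24 genes lie outside the axes. Ptger4, Pla2g4a, Ptgs2 and Hpgd lie above the trend, with SDs of 0.47 to 0.61 that fall to between 0.27 and 0.47 without replicate 2, and Ptges2 and Ptges3 lie below it.

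Of the 4 genes with the highest SD, 3 shared an order of the samples, and Hpgd, which was highest in replicate 2, did not. In Ptgs2, Pla2g4a and Ptger4, replicates 1 and 4 were both above replicate 3, and replicate 3 was above replicate 2. This order, described after the values had been seen, held for 3 of the 8 genes and for 15.6% of all genes. The share of reads from mitochondrial coding genes ran the opposite way, at 7.46% in replicate 1, 7.56% in replicate 4, 9.34% in replicate 3 and 12.5% in replicate 2. With mitochondrial genes left out of the total, the 3 genes kept the order, beside 11.2% of all genes, and their SDs were 0.58 for Ptgs2, 0.43 for Pla2g4a and 0.56 for Ptger4. Any other link of these genes with that share was not tested. The SD of the log2 ratio was 0.17 for Ptger4 to Pla2g4a, 0.22 for Pla2g4a to Ptgs2 and 0.25 for Ptger4 to Ptgs2, values that largely follow from choosing the 3 genes by their order and are no support for a shared course. In replicate 1, Ptgs2 stood higher relative to both: the log2 ratio of Pla2g4a to Ptgs2 differed from its mean there by -0.32, and that of Ptger4 to Ptgs2 by -0.30. By root-mean-square difference of the centred log2 values over the 4 samples, the genes of the whole table nearest to Ptgs2 were Robo2 (0.038), Nebl (0.039) and Golim4 (0.041). Robo2 had 4238, 1934, 2661 and 3849 reads. Nearest to Ptgs1 were LOC360479 (0.007), LOC100911766 (0.014) and Lonrf1 (0.018). Within 0.1 lay 31 genes for Ptgs2, 529 for Ptgs1, 15 for Ptger4 and 4 for Hpgd.

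Markers of podocytes, the filtering epithelial cells of the glomerulus, moved in the same order. All 8 of 8 podocyte markers used (Nphs1, Synpo, Podxl, Wt1, Magi2, Cd2ap, Ptpro and Actn4), a list shortened by 2 genes after the values were known, had replicates 1 and 4 above replicate 3 and replicate 3 above replicate 2, and their summed level was 9148, 5207, 6676 and 8099 CPM in replicates 1 to 4. Dividing by this sum reduced the SD of the log2 values from 0.47 to 0.15 for Pla2g4a, from 0.61 to 0.26 for Ptgs2 and from 0.60 to 0.29 for Ptger4. It raised the SD from 0.26 to 0.55 for Ptgs1, from 0.16 to 0.36 for Ptger1, from 0.61 to 0.92 for Hpgd and from 0.05 to 0.38 for Ptges3. Ptgs2, Pla2g4a and Ptger4 were picked by the order that the podocyte sum also had. The fall in their SDs was therefore largely fixed in advance and is no support for a link with podocytes. After this division, Ptgs2 was still highest in replicate 1, at 0.32 above its mean, and lowest in replicate 2, at -0.27. The part of podocyte RNA in these differences was not tested, and in bulk RNA fewer cells of a type and less RNA per cell cannot be told apart.

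The sums of the other marker lists followed other courses. The 5 markers of thick ascending limb and distal tubule with a row, of 6 listed, summed to 604, 424, 540 and 513 CPM, and 0 of 5 had the order of Ptgs2. Dividing Ptgs2 by this sum left an SD of 0.44, but the sum followed Umod alone, which had 429, 236, 346 and 320 CPM. Of the other markers in it, Slc12a1, Kcnj1 and Cldn16 were lowest in replicate 1, and Slc12a3 was highest in replicate 2. Nos1, the defining marker of macula densa in that list, was not analysed here. Of the 7 mesangial markers 2 had that order, and their sum was 2007, 2212, 2228 and 2519 CPM. The mesangial markers were divided: Pdgfrb, Itga8, Cspg4 and Gata3 were lowest in replicate 2, whereas Des, Acta2 and Tagln were highest there. Itga8, named after its values were seen, had 389, 182, 296 and 439 CPM and was the second nearest gene to Ptger4, at a root-mean-square difference of 0.047. None of the 6 endothelial markers with a row, of 7 listed, had it, and their sum ran from 4427 CPM in replicate 1 to 5758 CPM in replicate 3, the lowest and highest samples of Ptgs1 as well. Dividing Ptgs1 by the endothelial sum reduced its SD from 0.26 to 0.17, and dividing it by the mesangial sum to 0.18. The sum of the 7 proximal tubule markers was 6555, 4790, 3090 and 5008 CPM, with 0 of 7 in that order. The 8 leukocyte markers summed to 834, 1015, 911 and 801 CPM, lowest in replicate 4 and highest in replicate 2, although 7 of the 8 were lowest in replicate 1, as Ptgs1 was. Most of that sum was Cd74, the marker that was not, with a mean of 653 CPM. Dividing by the leukocyte sum, and so mainly by Cd74, left an SD of 0.27 for Ptgs1 and of 0.52 for Hpgd. The 7 collecting duct markers summed to 99.8, 128, 110 and 91.8 CPM, also highest in replicate 2, as Hpgd was, and 3 of the 7 were highest there, as were 3 of the 8 leukocyte markers. Dividing Hpgd by the collecting duct sum left an SD of 0.51. Their part in these differences was not tested.

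**Figure D3:**
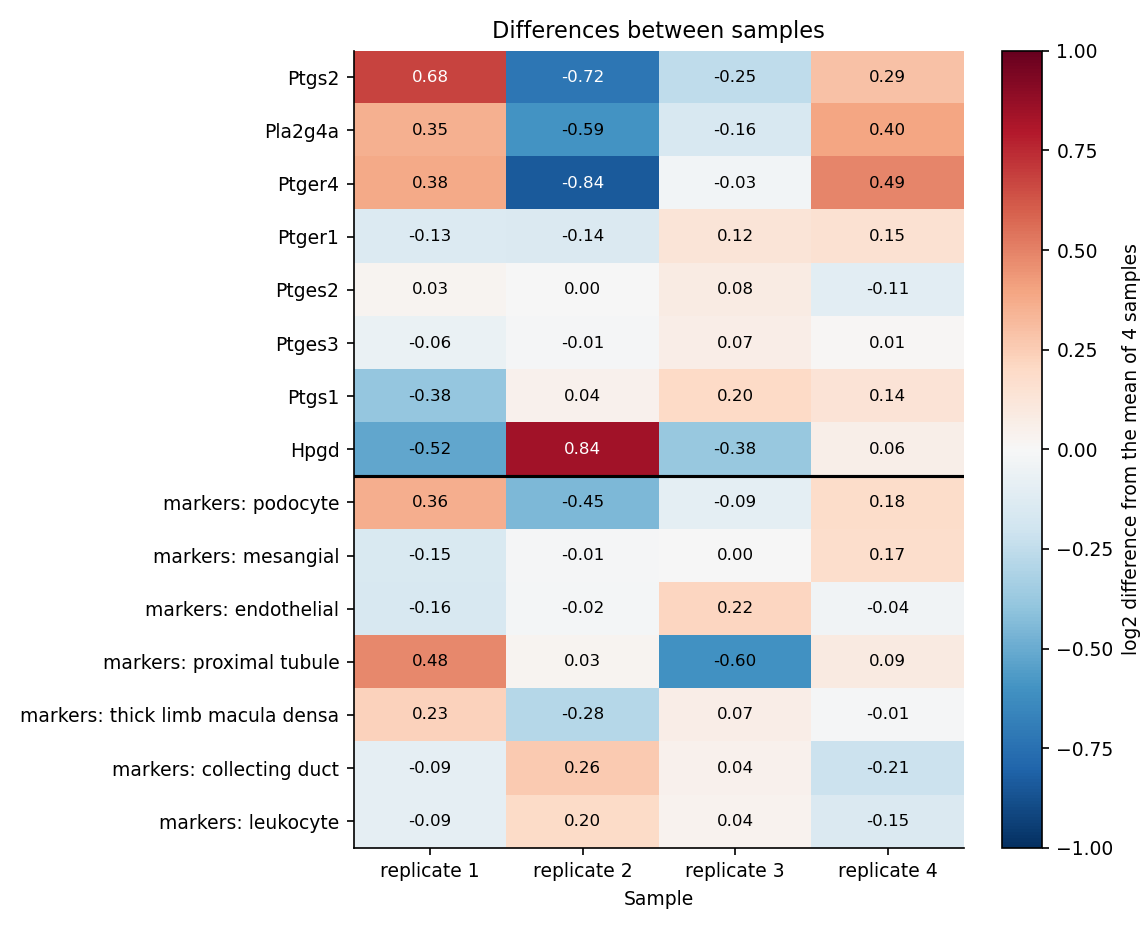
Log2 difference of each sample from the mean of the 4 samples, for the 8 prostaglandin genes (above the line) and the summed CPM of 7 marker lists (below it). Ptgs2, Pla2g4a, Ptger4 and the podocyte sum are all lowest in replicate 2, between -0.45 and -0.84, whereas Hpgd is 0.84 above its mean there.

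Other genes of prostanoid metabolism were taken from a list of 23, of which 16 had a row; Pla2g5, Hpgds, Cbr1, Ptger2, Ptgdr, Ptgdr2 and Ptgfr were not analysed here. Variation beyond counting error was found for 12 of the 16 (chi-square index on the reads, Benjamini-Hochberg adjusted p under 0.05), beside 69.5% of all genes. Limma called 0, with 1 at an unadjusted p under 0.05, beside 5.44% of all genes. The fixed-trend test called 2, beside 7.53%, and 1 without replicate 1, 3 or 4, beside 5.03%, 4.61% and 4.73%. These counts are small, and those of the chi-square index and limma are near the shares over all genes. The median SD of the 16 was 0.24 (log2), that of the 8 genes above 0.37, that of 13 genes of other arachidonic acid branches, described below, 0.35 and that of all genes 0.18. None of the 16 had the order of Ptgs2.

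Ptgds, the lipocalin-type prostaglandin D synthase, was the most uneven of them. It had 38.9, 16.7, 13.8 and 17.4 CPM in replicates 1 to 4, so that replicate 1 was high and the other three were alike, and the fixed-trend test gave an adjusted p of 3.19e-08 against 0.913 in limma. Prxl2b, a prostaglandin F synthase, had 28.5, 28.01, 14.7 and 18.4 CPM, high in replicates 1 and 2, and was the other gene called at the fixed trend (adjusted p = 0.0224; limma 0.913). Tbxas1, the thromboxane synthase, ran from 7.67 to 9.84 CPM and did not pass the counting-error test (adjusted p = 0.0807). Akr1b1, an aldose reductase that can form prostaglandin F, ran from 72.6 to 83.8 CPM.

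Further receptors of the pathway were measured. Ptger3 (EP3, which lowers cAMP) had 18.2, 16.1, 10.9 and 18.3 CPM, lowest in replicate 3. Tbxa2r, the thromboxane receptor, had 27.4, 33.2, 43.2 and 28.4 CPM, highest in replicate 3. Ptgir, the prostacyclin receptor, had 4.201, 6.42, 9.12 and 9.97 CPM, lowest in replicate 1, as Ptgs1 was. The receptors thus showed no common order: among Ptger1, Ptger3, Ptger4, Tbxa2r and Ptgir, the lowest sample was replicate 2, 3, 2, 1 and 1. Limma gave none of these receptors an adjusted p below 0.913.

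The remaining phospholipases were more even than Pla2g4a. Pla2g6, a calcium-independent enzyme, ran from 35.2 to 42.1 CPM, Pla2g15, a lysosomal one, from 37.7 to 47.8 CPM and Pla2g12a from 19.8 to 23.9 CPM. All 3 were highest in replicate 2, where Pla2g4a was lowest, but their SDs of 0.11, 0.15 and 0.12 (log2) were below the abundance trend, and Pla2g12a did not pass the counting-error test (adjusted p = 0.111, chi-square index on the reads). Pla2g2a, a secreted enzyme, had 27 to 50 reads and 1.99 to 3.08 CPM, a range within counting error (adjusted p = 0.222, chi-square index on the reads). In uptake and breakdown, Slco2a1, the prostaglandin transporter, had 97.0, 123, 146 and 124 CPM, lowest in replicate 1. Abcc4, an exporter of prostaglandins, had 44.5, 43.3, 30.03 and 43.6 CPM. Ptgr1, Ptgr2 and Zadh2 (also named Ptgr3), reductases of prostaglandin metabolites, ran from 6.89 to 9.95, from 58.0 to 83.4 and from 30.1 to 34.0 CPM.

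Arachidonic acid also feeds the lipoxygenase and cytochrome P450 branches, for which 13 of 17 listed genes had a row; Ltc4s, Ltb4r, Cysltr1 and Cysltr2 were not analysed here. Of the 13, 12 varied beyond counting error (chi-square index on the reads, adjusted p under 0.05), beside 69.5% of all genes, but without replicate 3 only 6 did, beside 61.3%. Limma called 0, with 3 at an unadjusted p under 0.05, beside 5.44%. The fixed-trend test called 3, beside 7.53%, and from 1 (without replicate 3, beside 4.61%) to 5 (without replicate 1, beside 5.03%) when a replicate was left out. The 3 were cytochrome P450 genes. Cyp2c23, an arachidonic acid epoxygenase, had 668, 504, 235 and 363 CPM in replicates 1 to 4. Cyp4a2 had 921, 1025, 463 and 408 CPM, and Cyp4a1 had 50.9, 48.5, 26.1 and 43.7 CPM; both are fatty acid omega-hydroxylases. The Cyp4a genes are close copies of each other, so the division of reads between them is uncertain. Replicate 3 was lowest for Cyp2c23 and Cyp4a1, and replicates 3 and 4 were low for Cyp4a2. The proximal tubule markers given above were also lowest in replicate 3, and their part was not tested. Alox15, a lipoxygenase, had 3.39, 3.21, 5.67 and 3.94 CPM. None of the 13 genes had the order of Ptgs2, Pla2g4a and Ptger4.

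**Figure D4:**
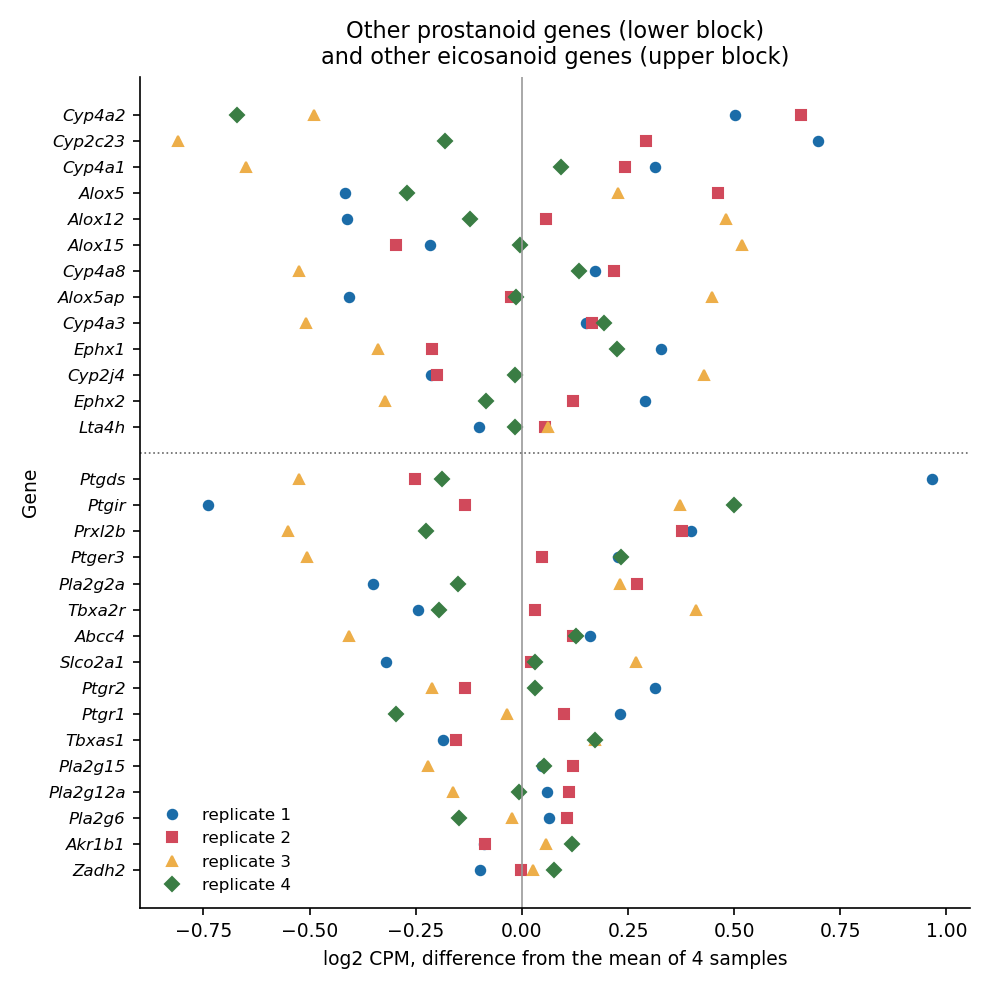
Log2 CPM of each sample as the difference from the gene's mean, for 16 other prostanoid genes (lower block) and 13 lipoxygenase, epoxygenase and related genes (upper block), sorted by SD within a block. Replicate 3 (triangles) is lowest for Cyp2c23 and Cyp4a1, and replicate 1 (circles) is high for Ptgds and low for Ptgir.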

How the data were processed

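Poly(A) RNA in 4 glomerular samples of ADR rats was sequenced with a stranded kit, per the labels' protocols. HISAT2, featureCounts, Subread, limma and the build Rnor_6.0 are named in the submitters' processing notes; the release of the annotation, the use of strand and any filter on low genes are not given in the sources used here. The deposited values are log2 CPM per gene. In each column, 2 to the power of the value was a whole number of reads plus 0.5, times a constant of the column, for 100% of genes (within 0.01 reads), and reads were recovered from this. Of 13265 rows, 4 with displaced cells were left out, and 116 rows sharing a symbol were not used by symbol.

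Fits ran over all 13261 genes: a chi-square index of dispersion on reads, limma 3.58.1 (R 4.3.3; intercept only, abundance trend, F test of the residual variance on the deposited log2 values) and a Pearson statistic at a dispersion trend fixed in 40 bins, each Benjamini-Hochberg adjusted. Simulated data for 13261 genes gave every gene the same dispersion. There, limma called 100% of 100 genes changed 4-fold in 1 replicate and 29% of 100 changed 2-fold. The fixed-trend test called 100% and 89%. The real genes do not share 1 dispersion, and limma's smallest adjusted p over all of them was 0.834. The simulated shares therefore do not carry over to these data. The gene members and lists were chosen with earlier results of these data known. Named were all members, all other prostanoid genes with a row, the highest, lowest and 3 most variable of the other eicosanoid genes, the 3 genes nearest to Ptgs2 and Ptgs1, and marker genes set beside a member. Gipc1, a neighbour of Ptger1, and Cyp4a3 and Cyp4a8, set apart by 1 sample, were named outside this rule. Some listed marker genes, 2 of them podocyte markers, are not reported here; they were left out after the values were seen, for a reason that did not rest on their values. The alternatives were other scalings, a pseudocount of 1 CPM, a filter at 1 log2 CPM, a robust prior and leaving out each replicate.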

Additional observations from a re-analysis of the deposited data

Results flagged for a closer look

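In 3 of 38 values, 1 sample lay far from the rest: its gap to the nearest sample, divided by the range, passed Dixon's 95% critical value. Chance gives 1.9, and over all genes the share was 5.08%. None of the 3 was among the 8 prostaglandin genes, and in each replicate 3 was the low sample. Abcc4 had a ratio of 0.930, with 461 reads in replicate 3 against 604 to 702. Cyp4a3 had a ratio of 0.939, with 828 reads against 1156 to 1395. Cyp4a8 had a ratio of 0.888, with 1361 reads against 1952 to 2404. The proximal tubule markers summed to 3090 CPM in that sample and to 4790 CPM or more in the others; their part was not tested.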

How the results depend on the processing

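Of 259 recomputed values that the setting could change, 239 stayed on the same side of their criterion, 7 were weaker, 4 stronger and 9 moved. Another 30, means and ratios under a rescaling of whole libraries, could not change and are not counted. The 239 include the limma adjusted p of each of the 8 genes and limma's counts. Limma called no gene with all samples, so these could hardly change side, and the tally overstates stability. Without a replicate, the number of prostaglandin genes beyond counting error ran from 5 to 7, against 7 with all samples, and the share of all genes from 55.2% to 65.4%, against 69.5%. The number of called genes in the excess-variance test was 0 under each limma setting and 3 with the Pearson statistic at a fixed dispersion trend, a statistic that ran from 0 (without replicate 2) to 3 when a replicate was left out, repeats that were chosen after seeing the data. The range of the log2 ratio of Ptgs2 to Ptgs1, 1.83 with all samples, ran from 0.92 (without replicate 1) to 1.83. The number of the 29 wider eicosanoid genes beyond counting error, 24 with all samples, ran from 15 (without replicate 3, beside 61.3% of all genes) to 23 (without replicate 2, beside 58.4%). The cause was not tested. The repeats without a replicate for the ratios to Hpgd and Ptger1 and for the wider lists taken singly were also chosen after seeing the data. No paired analysis was possible because there is a single group. With 32 to 99 reads per sample, Hpgd is the gene of the 8 whose values depth limits most, and Pla2g2a of the wider list had 27 to 50.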
